A study of Mus musculus with 6 samples.

Results

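Transporters of the Slc16 family and their partner basigin were examined in retinas of 4-month-old C57BL/6J mice, in wild-type animals and in animals carrying the C234W substitution in Elovl2, an elongase of long-chain polyunsaturated fatty acids. The gene list comprised 7 Slc16 genes (Slc16a1, Slc16a3, Slc16a6, Slc16a7, Slc16a8, Slc16a10 and Slc16a12) and Bsg, matched by symbol among 25124 gene models, and all 8 were found. Slc16a10 was chosen by its measured level, which was higher in the C234W libraries used here, so its difference is described without a test. Poly-A RNA of whole retina was sequenced in 3 libraries of each genotype, named WT1A, WT2A and WT2B and FS3A, FS3B and FS5A in the deposited table. The prefix FS is not explained by the labels and was read as C234W by elimination, since the header of the table lists 3 wild-type and 3 C234W libraries. Every direction below rests on that reading. The labels give neither zygosity nor the animal behind each library. P-values therefore measure the spread between these libraries, which may be technical.

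Slc16 proteins carry small acids across the cell membrane. The monocarboxylate transporters among them move lactate, pyruvate and ketone bodies together with a proton, and reach the cell surface bound to a single-pass chaperone, for most of them basigin. In the retina, photoreceptors make lactate from glucose and export it to Müller glia and to the pigment epithelium. Other members carry aromatic amino acids, thyroid hormones or creatine.

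Counts in genes made up 65.8 to 74.4% of each library's tags, and after TMM scaling the library totals were 13593015 to 21084392 counts. Levels are given in CPM, counts divided by these totals. Library WT1A stood apart. Of 12 pigment epithelium markers 9 were at their highest in WT1A, and their summed level there was 969 CPM, against 274 in WT2A, 162 in WT2B and 257 to 281 in the C234W libraries. Of 10 rod markers 9 were also at their highest in WT1A. None of the rod markers was at 0 in all libraries. Named genes whose call, direction or size turned on WT1A are also given without it. That fit has 2 wild-type libraries, WT2A and WT2B, whose names carry the same number, and the labels do not say that they are separate animals. Their counts were more alike than those of any other pair of libraries, so p-values of that fit may measure technical spread.

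Stretches before the start of Slc16a10, the member picked for its difference, and of Slc16a1, the transporter with the highest level per length, are shown 5′ to 3′. That before Slc16a8, whose level followed the summed pigment epithelium markers, is also shown. All are as RefSeq gives them on GRCm38.p6, the assembly also called mm10. Windows of 250 bases were found for 5 of the 8 genes, and letters that GENCODE M21 places in an exon are left out. Capitals mark GC boxes (GGGCGG, either strand) and E-boxes (CACGTG, which reads the same on both strands).
Slc16a10, chr10:40142259-40142504, minus strand: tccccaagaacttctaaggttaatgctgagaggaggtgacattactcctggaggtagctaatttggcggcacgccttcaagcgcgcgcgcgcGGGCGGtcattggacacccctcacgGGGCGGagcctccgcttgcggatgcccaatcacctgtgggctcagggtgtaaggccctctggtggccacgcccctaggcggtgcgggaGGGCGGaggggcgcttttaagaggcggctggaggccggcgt
Slc16a1, chr3:104638414-104638663, plus strand: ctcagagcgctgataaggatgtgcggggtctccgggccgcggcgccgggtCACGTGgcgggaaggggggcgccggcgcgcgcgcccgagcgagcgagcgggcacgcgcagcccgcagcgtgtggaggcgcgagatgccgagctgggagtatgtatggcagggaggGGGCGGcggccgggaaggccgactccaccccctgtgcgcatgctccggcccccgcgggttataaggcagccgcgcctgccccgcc
Slc16a8, chr15:79254762-79254998, minus strand: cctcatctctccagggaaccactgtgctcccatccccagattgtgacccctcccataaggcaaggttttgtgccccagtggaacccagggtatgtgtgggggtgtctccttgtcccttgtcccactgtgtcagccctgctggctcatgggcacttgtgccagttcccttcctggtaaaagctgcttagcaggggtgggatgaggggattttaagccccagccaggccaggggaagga

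These windows differed in base composition. Slc16a1 had 37 CpG dinucleotides in 250 bases and Slc16a10 had 21, whereas Slc16a8 had 1, against a median of 6 over 32851 windows of the same length. Slc16a10 held 3 GC boxes, whose first bases lay 158, 133 and 45 bases before the start. Slc16a1 held 1 GC box and 1 E-box, and Slc16a8 held neither. A GC box was present in 32.7% of all windows and an E-box in 6.02%. The letters TATAAA, present in 12.4% of windows, did not occur in any of the 5.

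Compared per kilobase of the counted transcript, Bsg was far above the transporters in wild type, at 572 ± 92.7 CPM per kilobase (SD, n = 3). Slc16a1 followed at 59.2 ± 9.28 and Slc16a6 at 48.3 ± 0.597 CPM per kilobase (SD, n = 3 each). Slc16a3 at 8.89 ± 5.08 and Slc16a8 at 7.29 ± 9.16 CPM per kilobase (SD, n = 3 each) could not be ordered, since their ranges overlapped. Slc16a7 stood at 0.535 ± 0.0734, and Slc16a10 at 0.0583 ± 0.0166 and Slc16a12 at 0.0409 ± 0.0236 CPM per kilobase (SD, n = 3 each) were last. The ranges of these last overlapped in wild type, although Slc16a10 was the higher in each library. In C234W the order of the means was the same. There Slc16a1 (49.1 ± 4.37, SD, n = 3) and Slc16a6 (37.8 ± 12.7 CPM per kilobase, SD, n = 3) overlapped, and the ranges of Slc16a10 (0.319 ± 0.0379, SD, n = 3) and Slc16a12 (0.108 ± 0.0421 CPM per kilobase, SD, n = 3) did not.

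**Figure D1:**
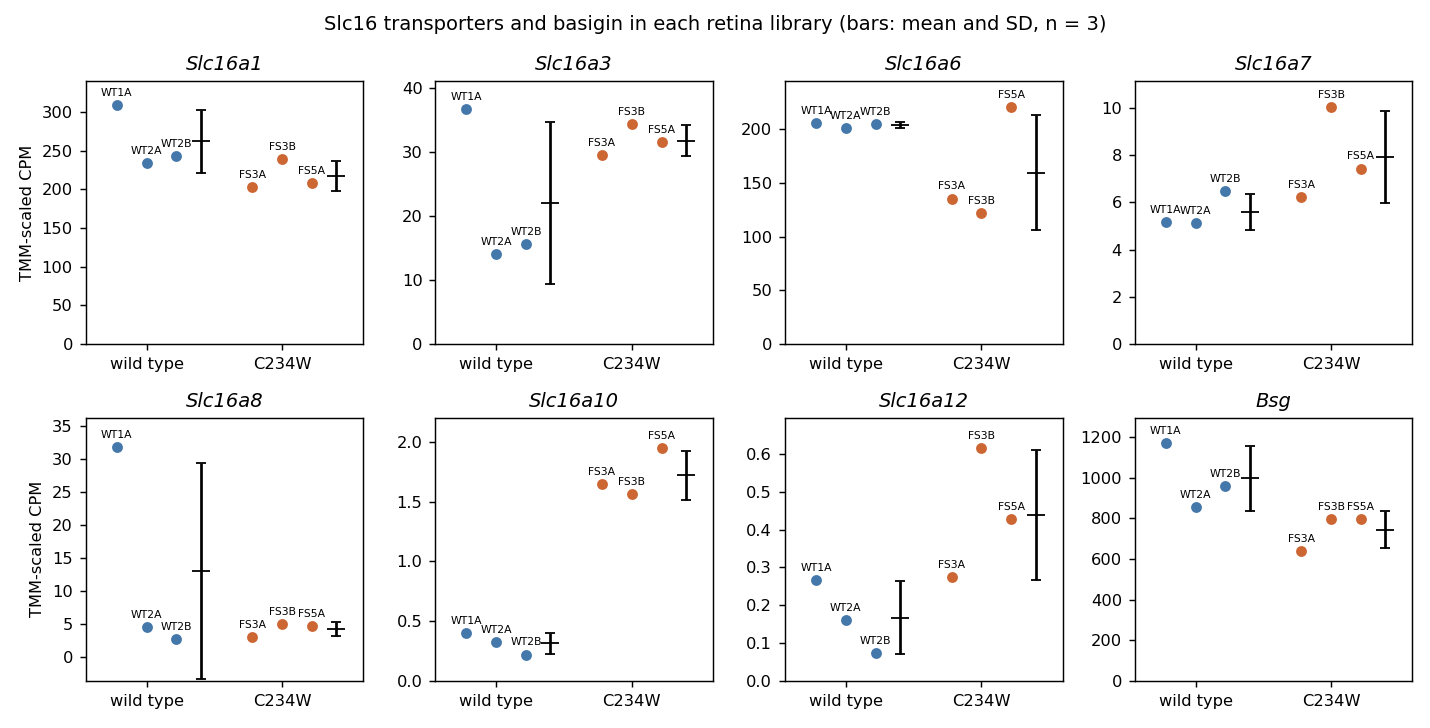
TMM-scaled CPM of each gene (linear vertical axes from 0, or from below 0 for Slc16a8 to hold its error bar) in the 3 wild-type and 3 C234W libraries, 1 point per library, with the mean and SD beside each group. Slc16a10 was at 1.57 to 1.95 CPM in C234W and at most 0.398 in wild type, and WT1A was far above the other libraries for Slc16a8.

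None of the 6 tested members other than Slc16a10 passed an adjusted p of 0.05 between the genotypes (edgeR quasi-likelihood test, Benjamini-Hochberg adjusted over all genes). Over all 14685 genes tested, 1.82% passed, 0.293% in the higher and 1.53% in the lower direction. At an unadjusted p under 0.05 there was 1 of the 6, Bsg, against 25.9% of all genes (12.2% higher and 13.7% lower), and DESeq2 and limma-voom called 0 of the 6, beside 11.9% of all genes by DESeq2. Their median log2 fold change was -0.31, beside 0.02 over all genes, with 2 values above and 4 below 0. The groups of 1 of the 6, Bsg, did not overlap, beside 29.1% of all genes. Slc16a12 was too low to be tested.

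Slc16a10, on chromosome 10 from 40033535 to 40142254 (minus strand, NM_001114332), encodes a carrier of aromatic amino acids and thyroid hormones that does not use a proton. Its counts were 6.5, 6 and 3 in WT1A, WT2A and WT2B, whereas FS3A had 30, FS3B had 33 and FS5A had 31.5. On the CPM scale these were 0.398, 0.323 and 0.221 in wild type and 1.64, 1.57 and 1.95 in C234W. Each C234W library lay above each wild-type library, and the C234W libraries were close to each other. The means were 0.314 ± 0.0892 and 1.72 ± 0.204 CPM (SD, n = 3 each), a fitted log2 fold change of 2.40 (SE 0.436). The gene passed the filter on low counts through the C234W libraries, so its presence among tested genes depends on the same difference. The fold change was 2.59 without WT1A and 2.17 with the trend on transcript length removed. The counted transcript has 5386 bases. The GENCODE M21 transcript linked to its RefSeq identifier, of 5397 bases, has 6 exons and 512 codons, 71.5% of its length is not coding, and it shares 0 exon bases with another gene on the same strand.

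Among markers, the summed level of 10 vascular endothelium genes was 195 to 226 CPM in wild type and 279 to 339 CPM in C234W. It was higher without overlap, as were 12.6% of all tested genes taken singly. The largest parts of this sum were Flt1 (mean 98.6 CPM in wild type, 145 in C234W) and Kdr (57.6 and 85.5 CPM). Their counted transcripts have 6863 and 5889 bases, in the fifth of tested genes with the longest transcripts, whose median log2 fold change was 0.28. Other marker sums also separated the genotypes, in the lower direction. Erythrocyte markers were at 122 to 230 CPM in wild type and 60.3 to 83.2 CPM in C234W, and rod markers were likewise lower. The erythrocyte sum holds pairs of gene models with nearly equal counts, such as Hbb-bs and Hbb-b1 (656.5 and 651.5 in WT1A). It may therefore count tags more than once. All 10 vascular endothelium genes had a positive log2 fold change, beside 7628 of all 14685 tested genes, and 0 passed the test. Their values ran from 0.07 (Emcn, SE 0.507) to 1.01 (Esam, SE 0.211). Of the 10, only Pecam1, Esam and Flt1 did not overlap between the groups. The part of vascular endothelium genes in the difference of Slc16a10 was not tested. A change in the number of cells of a type and a change in RNA per cell cannot be told apart in RNA from whole tissue.

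Over the 6 libraries, the genes whose log2 CPM followed that of Slc16a10 most closely were Tmem63c (Pearson r = 0.996), Zfp799 (0.996), Usp9x (0.992), Pclo (0.992) and Adcy7 (0.991), among 13295 genes with a mean of at least 1 CPM. Tmem63c encodes a membrane channel protein, Usp9x a deubiquitinase, Pclo a scaffold of the presynaptic active zone and Adcy7 an adenylyl cyclase. These values describe 6 libraries in 2 groups, and any gene that separates the genotypes evenly scores high. Adcy7 was at 0.956 to 1.33 CPM in wild type and 2.41 to 3.17 in C234W. Pclo, at 93.7 to 99.9 CPM in wild type and 133 to 135 in C234W, moved by a smaller factor.

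Slc16a3, on chromosome 11 from 120948484 to 120959000 (plus strand, NM_030696), encodes MCT4, the low-affinity exporter of lactate from glycolytic cells. It stood at 36.7, 14.05 and 15.6 CPM in WT1A, WT2A and WT2B and at 29.5, 34.3 and 31.5 CPM in FS3A, FS3B and FS5A. WT1A was the highest of all libraries, while WT2A and WT2B were below every C234W library, so the groups overlapped through WT1A alone. The means were 22.1 ± 12.6 and 31.8 ± 2.45 CPM (SD, n = 3 each), and the log2 fold change was 0.53 (SE 0.337, edgeR adjusted p = 0.347). Without WT1A, Slc16a3 rose by 1.11 on the log2 scale (SE 0.171, edgeR adjusted p = 0.0126). In that fit 18.5% of all genes passed, 8.93% in the higher and 9.55% in the lower direction.

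Ratios between members in a library do not depend on how libraries are scaled. For each 100 counts of Slc16a1 there were 11.8, 6.00 and 6.44 counts of Slc16a3 in WT1A, WT2A and WT2B, whereas FS3A had 14.5, FS3B 14.4 and FS5A 15.1. The log2 ratio was higher in C234W by 0.93, without overlap, WT1A included (exact permutation test, two-sided p = 0.1, the smallest that 3 against 3 allow; 0.15 after Benjamini-Hochberg adjustment over 3 ratios). Slc16a7 against Slc16a1 was also higher without overlap, at 1.66 to 2.67 counts per 100 in wild type and 3.05 to 4.20 in C234W, with the same exact permutation p-values of 0.1 and 0.15. Slc16a6 against Slc16a1 overlapped (exact permutation p = 0.6). These 3 ratios were chosen after the values had been seen, and their p-values are descriptive. Ratios of other genes were not examined, and the groups of 29.1% of all tested genes taken singly did not overlap. A trend on transcript length remains in such ratios. The counted transcripts have 10447 bases for Slc16a7, 2485 for Slc16a3 and 4423 for Slc16a1.

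Slc16a1, on chromosome 3 from 104638664 to 104658462 (plus strand, NM_009196), encodes MCT1, a carrier of lactate and ketone bodies found in many cell types. It stood at 309, 234.1 and 243 CPM in WT1A, WT2A and WT2B and at 204, 239 and 208 CPM in FS3A, FS3B and FS5A. FS3B lay within the wild-type range and the other C234W libraries below it. The means were 262 ± 41.1 and 217 ± 19.3 CPM (SD, n = 3 each), and the fitted difference was -0.27 on the log2 scale (SE 0.165, edgeR adjusted p = 0.323). The fitted value was -0.13 without WT1A and -0.46 with the length trend removed, and did not pass in either.

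Slc16a7, on chromosome 10 from 125219270 to 125308816 (minus strand, NM_001358915), encodes MCT2, a high-affinity carrier of lactate and pyruvate known from neurons, which pairs with embigin more than with basigin. It stood at 5.18, 5.11 and 6.47 CPM in WT1A, WT2A and WT2B and at 6.24, 10.1 and 7.44 CPM in FS3A, FS3B and FS5A. FS3A lay within the wild-type range and FS3B was the highest. The log2 fold change was 0.51 (SE 0.266, edgeR adjusted p = 0.255). Its counted transcript has 10447 bases, the longest of the list. In the fifth of tested genes with the longest transcripts, from 4985 bases, the median log2 fold change was 0.28, and in the fifth with the shortest, up to 1671 bases, it was -0.34. With the length trend removed, the value of Slc16a7 was 0.14 (adjusted p = 0.811).

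Slc16a6, on chromosome 11 from 109450856 to 109473294 (minus strand, NM_134038), encodes MCT7, linked to the export of ketone bodies from liver. The wild-type libraries were nearly equal, at 206, 201 and 204 CPM in WT1A, WT2A and WT2B. In C234W, FS3A and FS3B were lower, at 135 and 122 CPM, and FS5A was the highest of all libraries at 221 CPM. The SD was 2.51 CPM in wild type and 53.5 CPM in C234W. The log2 fold change was -0.35 (SE 0.222, edgeR adjusted p = 0.339), and -0.66 (SE 0.164, adjusted p = 0.0921) without FS5A. The names of FS3A and FS3B carry the same number, and whether both come from 1 animal is not stated.

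**Figure D2:**
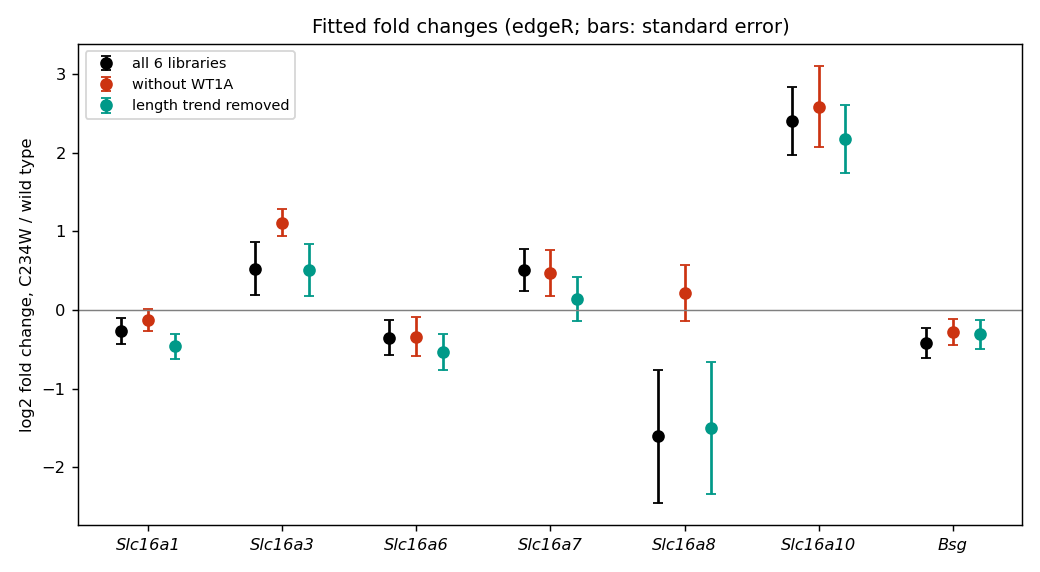
Fitted log2 fold changes of C234W against wild type (vertical axis) for the 7 tested members, with standard errors, in the fit of all 6 libraries, without WT1A, and with the trend on transcript length removed. Slc16a8 went from -1.61 to 0.22 without WT1A and Slc16a3 from 0.53 to 1.11, while Slc16a10 stayed between 2.17 and 2.59 in these 3 fits.

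Slc16a8, on chromosome 15 from 79251016 to 79254748 (minus strand, NM_020516), encodes MCT3, the lactate carrier of the basal side of the pigment epithelium. It stood at 31.8, 4.52 and 2.65 CPM in WT1A, WT2A and WT2B and at 3.07, 5.03 and 4.63 CPM in FS3A, FS3B and FS5A. WT1A alone was high, and the other wild-type libraries overlapped the C234W libraries. The means were 13.0 ± 16.3 and 4.24 ± 1.04 CPM (SD, n = 3 each), and the log2 difference was -1.61 (SE 0.849, edgeR adjusted p = 0.268). Without WT1A the direction turned, to 0.22 (SE 0.357, adjusted p = 0.694).

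Of the 12 pigment epithelium markers 9 were also at their highest in WT1A, as was their sum. Best1, Mitf and Pmel were not. Best1 was at 0.108 to 0.398 CPM in wild type and 0.766 to 1.04 CPM in C234W. Mitf was at 5.81 to 7.93 CPM over all libraries, and Pmel was at 12.6 CPM in FS5A and 8.90 CPM in WT1A. Rpe65, the isomerase of the visual cycle, was at 60.6 CPM in WT1A and at 7.28 to 14.5 CPM in the other 5 libraries. It was also the gene whose log2 CPM was most like that of Slc16a8 over the 6 libraries (Pearson r = 0.990). Sema3b, a secreted semaphorin (0.981), Dnajc2 (0.976), Tubgcp2 (0.975) and Rgr, an opsin of pigment epithelium and Müller glia (0.975), came next. These correlations rest largely on WT1A and are given as a description. None of the 12 pigment epithelium markers was at 0 in all libraries. The amount of pigment epithelium in each retina was not measured otherwise, and its part in the level of Slc16a8 was not tested.

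**Figure D3:**
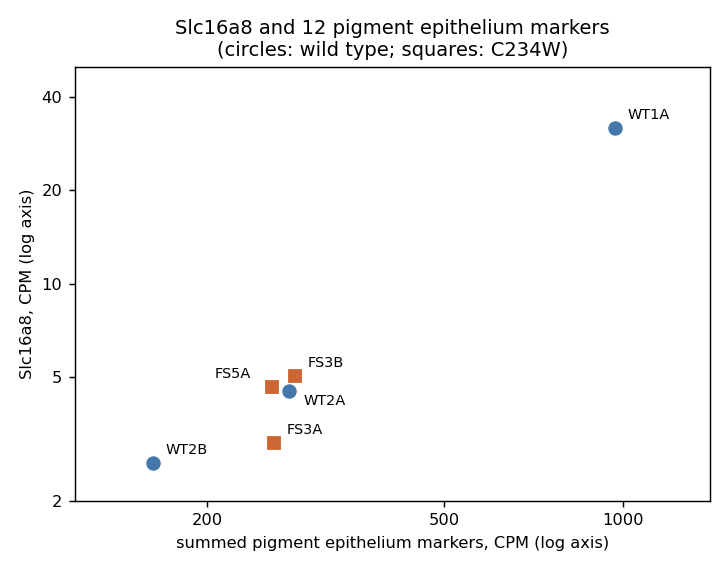
Slc16a8 (vertical axis, CPM, log scale) against the summed level of 12 pigment epithelium markers (horizontal axis, CPM, log scale), 1 point per library. WT1A lies at 969 and 31.8 CPM, and the other 5 libraries lie between 162 and 281 CPM of markers and 2.65 and 5.03 CPM of Slc16a8.

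Slc16a12, on chromosome 19 from 34668401 to 34747328 (minus strand, NM_172838), encodes a creatine transporter that is mutated in an inherited cataract with small corneas. It had 4, 3 and 1 counts in WT1A, WT2A and WT2B, whereas FS3A had 5, FS3B had 13 and FS5A had 7. A count of 3, the limit that a count of 0 allows, corresponds to 0.142 to 0.221 CPM in these libraries, so the wild-type level of 0.167 ± 0.0962 CPM (SD, n = 3) was near the detection limit. C234W was at 0.439 ± 0.172 CPM (SD, n = 3). The groups did not overlap, although WT1A at 0.266 and FS3A at 0.274 CPM were nearly equal. With no filter, edgeR gave a log2 difference of 1.37 (SE 0.702, adjusted p = 0.277).

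Bsg, on chromosome 10 from 79704358 to 79711979 (plus strand, NM_009768), encodes basigin, an immunoglobulin-family protein that brings lactate carriers to the cell surface and whose loss blinds mice. It stood at 1173, 856 and 961 CPM in WT1A, WT2A and WT2B and at 641, 799 and 796 CPM in FS3A, FS3B and FS5A. Each C234W library was below each wild-type library, as was so for 16.4% of all tested genes. The means were 997 ± 162 and 745 ± 90.1 CPM (SD, n = 3 each), and the log2 fold change of -0.42 (SE 0.185) did not pass (edgeR adjusted p = 0.193). Without WT1A it was -0.28 (adjusted p = 0.256). The summed level of the 10 rod markers was likewise lower, from 99905 to 156982 CPM in wild type and from 66790 to 88457 CPM in C234W, with 1 of the 10 past the test, and its part in the level of Bsg was not tested.

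The GENCODE M21 transcript linked to the RefSeq identifier of the counted Bsg model has 389 codons, though its exons add up to 1526 bases and those of the counted model to 1742. It is the long form, with the additional immunoglobulin-like domain known from photoreceptors. Tags in exons that it shares with the short form count for both, so the forms were not told apart. Relative to the summed level per kilobase of the 7 Slc16 members, Bsg was at 4.43, 4.50 and 4.93 in WT1A, WT2A and WT2B and at 3.97, 4.54 and 3.94 in FS3A, FS3B and FS5A. FS3B lay within the wild-type range of this ratio.

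Of 7 other genes of the Slc16 family 6 were tested and 0 passed (edgeR), with a median log2 fold change of 0.05. At an unadjusted p under 0.05 there were 0, beside 25.9% of all genes, and DESeq2 called 0, beside 11.9%. Slc16a4 had -0.76 (SE 0.442), Slc16a9 -0.45 (SE 0.48), Slc16a11 0.32 (SE 0.226), Slc16a13 0.93 (SE 0.575) and Slc16a14 -0.02 (SE 0.41) on the log2 scale. Slc16a9 was at 10.2 CPM in WT1A and at 3.16 to 5.50 CPM in the other libraries, and its log2 value was 0.33 (SE 0.349) without WT1A. That of Slc16a13 was then 1.70 (SE 0.63, edgeR adjusted p = 0.096). Slc16a5 had 0 counts in each of the 6 libraries.

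Among 6 relatives and partners of basigin, 0 passed (edgeR, 2 at an unadjusted p under 0.05), with a median log2 fold change of -0.30, and DESeq2 called 1, Nxnl2. Over all genes, 25.9% had an unadjusted p under 0.05 and DESeq2 called 11.9%. Nxnl1 and Nxnl2 encode the rod-derived cone viability factors, the first of which binds the long form of basigin. Nxnl2 was at 150, 131 and 150 CPM in wild type and at 74.7, 50.7 and 106 CPM in FS3A, FS3B and FS5A, lower without overlap. Its log2 difference was -0.90 (SE 0.246, edgeR adjusted p = 0.077). The counted transcript of Nxnl2 has 1159 bases, and with the length trend removed its value was -0.64 (SE 0.248, edgeR adjusted p = 0.19). Nxnl1 was at 442 CPM in WT1A and at 147 to 188 CPM in the other libraries, with a log2 fold change of -0.69 (SE 0.337), and -0.11 (SE 0.152) without WT1A. The basigin relatives Emb (embigin, 0.25, SE 0.426) and Nptn (neuroplastin, -0.06, SE 0.198) had small values on the log2 scale, and that of Emb was -0.06 (SE 0.388) without WT1A. Ppia, cyclophilin A, a ligand of basigin, had -0.54 (SE 0.236, edgeR adjusted p = 0.192). Without WT1A it fell by 0.75 (edgeR adjusted p = 0.0254). Its counted transcript has 738 bases, and with the length trend removed its value was -0.13 (SE 0.227, edgeR adjusted p = 0.774). Cd44, a hyaluronan receptor, was at 103 and 92.0 CPM in FS3A and FS3B, 18.8 in FS5A, 59.6 in WT1A and 12.6 and 10.4 CPM in WT2A and in WT2B, a log2 fold change of 1.37 (SE 0.798, edgeR adjusted p = 0.309). Without WT1A the groups did not overlap and Cd44 rose by 2.63 (SE 0.667, edgeR adjusted p = 0.0352). In that fit 1 of the 6 genes was called higher and 1 lower, beside 8.93% and 9.55% of all genes.

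In the list of lactate and pyruvate handling, 1 of 16 tested genes passed in the lower and 0 in the higher direction, beside 1.53% and 0.293% of all genes. The median log2 fold change was -0.17, with 6 values above and 10 below 0. The gene that passed was Mpc2, a subunit of the carrier that takes pyruvate into mitochondria. It was at 65.8, 81.3 and 81.1 CPM in WT1A, WT2A and WT2B and at 43.2, 41.6 and 42.4 CPM in FS3A, FS3B and FS5A, without overlap. Its log2 fold change was -0.84 (SE 0.152, edgeR adjusted p = 0.0469). It did not pass with the length trend removed, with total-count scaling, after summing libraries whose names carry one number, or without any 1 of WT2A, WT2B, FS3A, FS3B and FS5A. At an unadjusted p under 0.05, 5 of the 16 genes were lower and 0 higher, beside 13.7% and 12.2% of all genes. Without WT1A, Hk2, a hexokinase (1.65 on the log2 scale, edgeR adjusted p = 0.0157), and Slc2a1, the glucose carrier of the blood-retina barrier (0.60, adjusted p = 0.0296), rose beside Slc16a3, and Ldhb, Pdha1 and Mpc1 fell beside Mpc2 (adjusted p from 0.0126 to 0.0402). These were 6 of the 16 genes, in a fit that called 18.5% of all genes. With all 6 libraries, the log2 value of Hk2 was 0.36 (SE 0.66, edgeR adjusted p = 0.765). That of Slc2a1 was 0.36 (SE 0.201, edgeR adjusted p = 0.285). Hk2 was at 971 CPM in WT1A, above the 415 to 818 CPM of C234W. Slc2a1 was at 243 CPM in WT1A, within the 216 to 257 CPM of C234W. With all 6 libraries and the length trend removed, Ldhb had -0.36, Pdha1 -0.49 and Mpc1 -0.57 (edgeR adjusted p from 0.172 to 0.385).

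Of 9 tested transporters of aromatic and large neutral amino acids, 0 passed (edgeR), with a median log2 fold change of 0.24 and 8 values above 0. At an unadjusted p under 0.05, 3 were higher and 1 lower, beside 12.2% and 13.7% of all genes. DESeq2 called 2, beside 11.9% of all genes. The median length of these 9 transcripts was 3922 bases, in the fourth of 5 length classes, whose median over all genes was 0.13. With the length trend removed, their median was 0.10, with 5 values above 0. The smallest p was that of Slc43a2, a carrier of large neutral amino acids, at 36.0 ± 4.48 CPM in wild type and 55.8 ± 9.54 CPM in C234W (SD, n = 3 each). Its log2 fold change was 0.63 (SE 0.181, edgeR adjusted p = 0.0832). The counted transcript of Slc43a2 has 7131 bases, and with the length trend removed its value was 0.34 (SE 0.18, edgeR adjusted p = 0.307). The groups of 3 of the 9, Slc7a6, Slc7a8 and Slc43a2, did not overlap in the higher direction, beside 12.6% of all tested genes. Slc3a2, the heavy chain that brings several amino acid carriers to the surface, was the 1 gene with a negative value, at -0.57 (SE 0.177, edgeR adjusted p = 0.0983). Without WT1A, Slc43a2 rose by 0.73 (edgeR adjusted p = 0.0361) and Slc3a2 fell by 0.70 (adjusted p = 0.0214). These were 1 higher and 1 lower of 10 genes tested in that fit, which called 18.5% of all genes.

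Among all 6 libraries, of 10 tested thyroid hormone genes 0 passed (edgeR). At an unadjusted p under 0.05 there were 2, beside 25.9% of all genes, and DESeq2 called 1, beside 11.9%. The smallest p was that of Hr, a thyroid hormone receptor corepressor, at a log2 difference of 0.57 (SE 0.157, edgeR adjusted p = 0.077). Without WT1A, Hr rose by 0.67 (edgeR adjusted p = 0.0238) and Klf9, a thyroid hormone-responsive transcription factor, fell by 0.59 (adjusted p = 0.038). These were 1 higher and 1 lower of 10 genes tested, in a fit that called 18.5% of all genes. With the length trend removed, Hr had 0.33 (edgeR adjusted p = 0.252) and Klf9 -0.69 (adjusted p = 0.107). Of 6 tested creatine genes 0 passed (1 at an unadjusted p under 0.05, beside 25.9% of all genes, and 0 by DESeq2, beside 11.9%). The smallest p there was that of Slc6a8, the main creatine importer, at 69.8 ± 1.82 CPM in wild type and 87.0 ± 6.34 CPM in C234W (SD, n = 3 each), a log2 difference of 0.32 (SE 0.139, edgeR adjusted p = 0.188).

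**Figure D4:**
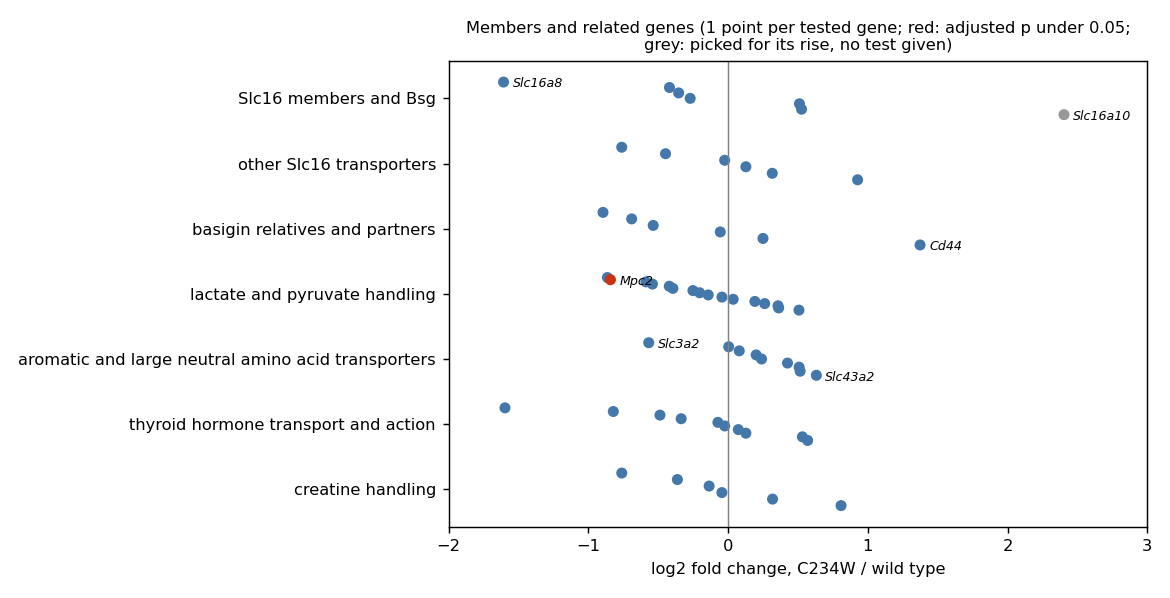
Log2 fold change of C234W against wild type (horizontal axis) for each tested gene of the list and of the 6 lists of related genes, 1 point per gene. Mpc2 at -0.84 is the 1 gene past an adjusted p of 0.05, and Slc16a10 at 2.40, in grey, was picked for its difference.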

How the data were processed

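Poly-A RNA of whole retina went into TruSeq libraries that keep the strand, per the labels' protocols. The submitters' processing notes name STAR 2.7.8a, HOMER and mm10. Per the file headers, HOMER counted tags over exons, with 1 isoform for each locus. The deposited values are estimated counts, not normalized, in steps of 0.5, per the file headers. They were rounded to whole numbers, values ending in 0.5 to the even neighbour. Sample columns left out numbered 0.

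The fit used edgeR 4.0.16 under R 4.3.3, with TMM scaling, its filterByExpr filter (14685 genes left) and its robust quasi-likelihood test without covariates. P-values were adjusted by Benjamini-Hochberg over all tested genes, threshold 0.05. The SE is the log2 fold change divided by the square root of the F statistic. No pair of libraries was a duplicate. The smallest chi-square, 9.97 per degree of freedom, was that of WT2A and WT2B, and the next, 30.6, was that of FS3A and FS5A. Alternatives were other scalings and filters, DESeq2 (1.42.0), limma-voom (limma 3.58.1), unrounded counts, a loess trend on transcript length removed (span 0.3), summed libraries, each library left out and, chosen after seeing the data, values ending in 0.5 rounded up. On simulated counts of 14685 genes for this comparison, 40% of the 2-fold changes and 84% of the 4-fold changes were found by edgeR, and 15 of its 139 calls were false. GENCODE M21 transcripts were linked by RefSeq identifier for 7 of 8 members. Their start and end differ from the counted models for each of the 7, as does their exon length.

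The members and lists were chosen with earlier results of these data known. The text names the 8 members, each gene of the 2 lists closest to them except 1 that is not reported here, in the other lists the genes past the threshold or the gene with the smallest p, and the 5 genes most like Slc16a10 and Slc16a8. Genes named beyond that rule (Slc7a6, Slc7a8, Slc3a2, Klf9, Hk2, Slc2a1, Ldhb, Pdha1 and Mpc1) were chosen after their values were seen. So were the named cell type markers other than Rpe65 and Rgr.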

Additional observations from a re-analysis of the deposited data

How the results depend on the processing

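Of 102 fold changes of the 6 tested members other than Slc16a10 under 17 alternatives, 1 changed direction, while Slc16a7 ranged from 0.14 to 0.69 and Slc16a1 from -0.46 to -0.08. That they mostly did not pass says little, since 4 alternatives called 0 and 3 called 1 of all genes. Without WT1A, Slc16a8 turned to 0.22 (leaving out each library gave -2.08 to 0.22) and Slc16a3 passed. The count of called members other than Slc16a10 was 0 in the fit of all libraries and ran from 0 to 1 with each library left out. Over all genes, 267 were called, with 1754 by DESeq2, 1 with total-count scaling, 1 with the length trend removed and 0 with same-number libraries summed (edgeR, 1847 at an unadjusted p under 0.05), and from 0 to 2771 with each library left out. Among the related genes, 1 was called (Mpc2), with 5 by DESeq2, 0 with total-count scaling, the length trend removed or libraries summed, and from 0 to 12 with each library left out. The cause of these shifts was not tested. With scaling to total counts the median over all genes was 0.21 on the log2 scale, against 0.02 with TMM, and no tested member changed direction. No paired analysis was possible because the columns of the deposited table do not carry the replicate numbers of the labels. Depth limits Slc16a10 and Slc16a12 most, with 3 to 6.5 and 1 to 4 counts per wild-type library.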
